A study of Mus musculus with 9 samples.

Results

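Neuropeptides are short signalling peptides that neurons cut from larger precursors, store in vesicles and release from their endings, where they act on G-protein-coupled receptors of muscle, vessels, urothelium and immune cells. In the bladder, substance P, neurokinin A and calcitonin gene-related peptide (CGRP) are known from sensory fibers, and neuropeptide Y and vasoactive intestinal peptide (VIP) from autonomic fibers. The cell bodies of the sensory fibers lie in dorsal root ganglia, outside the tissue that was sampled here. The 10 genes described are 6 peptide precursors (Tac1, Calca, Vip, Npy, Adcyap1, Gal) and 4 genes of receptor proteins (Tacr1, Tacr2, Calcrl, Ramp1). They were taken from the 53342 genes of the deposited table because their symbols equal these names. The names were chosen with earlier results of these data known.

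RNA was sequenced from bladders, given as total bladder in the labels and as a hemisphere of the bladder in the study's methods, of female wild-type C57BL/6N mice, infused at the age of 8 weeks and sampled on day 10, with 3 libraries in each of 3 groups. The control group is labelled untreated in the deposited record, while the study calls it sham and also describes saline infused into the bladder of control mice. Whether the comparisons with control include the infusion itself therefore cannot be told. The H2O2/saline group received an intravesical infusion of 1.5% hydrogen peroxide on day 0, which is used to model interstitial cystitis, and intraperitoneal saline on days 0 and 4. The H2O2/SB431542 group received the same infusion and, on the same days, 1.2 mM SB431542, an inhibitor of the type I receptors of TGF-β and activin. The labels do not say that the 3 libraries of a group came from separate mice, so p-values measure the spread between these libraries. In whole tissue, fewer cells of a type and less RNA per cell cannot be told apart.

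Each library held 37329213 to 41055328 counts over 21810 to 28154 genes with a count. Markers fitted the labelled organ, with summed urothelial markers at 10899 to 22588 CPM (counts scaled to 1000000 per library) and summed smooth muscle markers at 23110 to 51653 CPM. The library H2O2/saline 1 stood apart from its group. On the first principal component, which held 34.4% of the variance, it lay at -42.4 among the controls (-61.5 to -38.8), whereas H2O2/saline 2 and 3 lay at 86.4 and 112. H2O2/SB431542 1 lay at -42.3, also among the controls, and the other SB431542 libraries at 26.5 and 10.1. On the second component, with 16.7% of the variance, control 1, H2O2/saline 1 and H2O2/SB431542 1 lay at 34.2, 54.5 and 42.8. Controls 2 and 3 lay there at -47.0 and -84.1, and the remaining libraries at -8.917 to 15.35. Replicate 1 of each group also had the most genes with a count (26475, 27198 and 28154, against 21810 to 24524). Whether H2O2/saline 1 and H2O2/SB431542 1 carry the right label was not tested. The means and fold changes of both H2O2-infused groups include them as labelled. Results are therefore given with all 9 libraries and, where a call changed, without H2O2/saline 1. The choice of this library came from its place in these same data. An adjusted p without it, or with replicates 2 and 3 only, is thus a description and not support for a change.

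The promoters of the peptide genes are shown because cyclic AMP response elements are textbook features of several of them. The half-site TGACG, which reads CGTCA from the opposite strand, was searched on both strands in the 250 bases before each start annotated by RefSeq on GRCm38.p6. It was found in 4 of the 6 peptide genes and in 1 of the 4 receptor genes, against 17.8% of all 32851 promoters of this length. Each line below gives 40 bases of the coding strand, 5′ to 3′, with the half-site in capitals.
Tac1, chr6:7554846-7554885 (+), 197 bases before the start: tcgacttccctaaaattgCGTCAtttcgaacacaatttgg
Tac1, chr6:7555000-7555039 (+), 43 bases before the start: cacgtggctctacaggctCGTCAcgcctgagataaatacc
Calca, chr7:114636401-114636440 (-), 65 bases before the start: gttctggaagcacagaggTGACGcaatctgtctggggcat
Vip, chr10:5639121-5639160 (+), 79 bases before the start: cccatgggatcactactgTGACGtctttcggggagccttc
Adcyap1, chr17:93198908-93198947 (+), 91 bases before the start: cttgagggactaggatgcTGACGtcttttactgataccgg
Tac1 carried the half-site at 2 places. The half-site of Vip and that of Adcyap1 continued with the same bases, and the windows of Npy and Gal held none. Among other peptide genes with a promoter in the table, 6 of 18 held it, and among other peptide receptor genes, 7 of 28 did. A match describes letters and does not show a site in use.

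The peptide precursors were at or near the limit of detection in all groups. Calca had 4 to 22 counts in a library and Npy 0 to 47. Vip had counts in 4 libraries, Tac1 and Gal in 1 library each, and Adcyap1 in none. For a gene at 0, a floor of 3 counts allows up to 0.0686 to 0.0867 CPM in a single library, and 0.00849 CPM over the 9 libraries together. The receptor genes had counts in all 9 libraries.

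**Figure D1:**
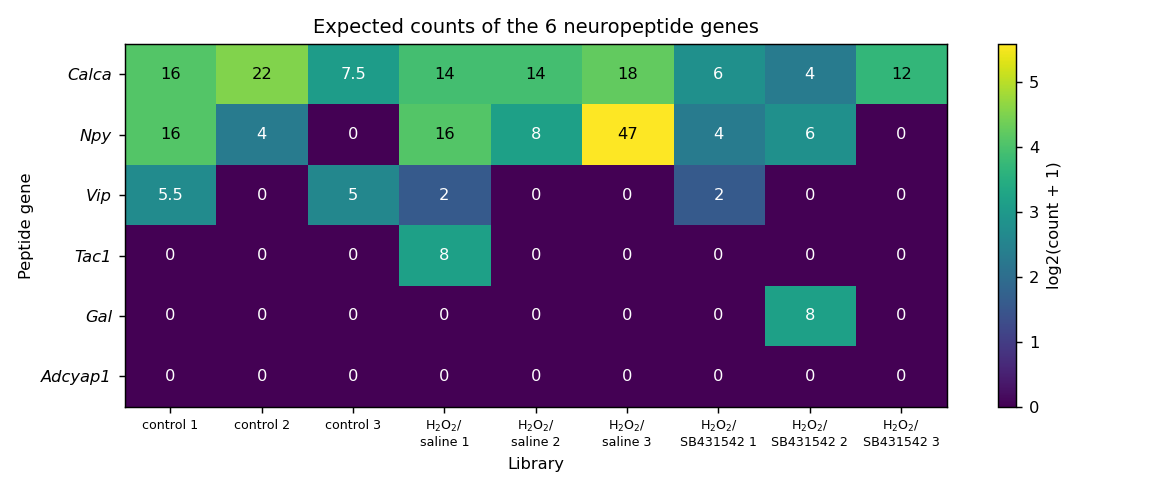
Expected counts of the 6 peptide precursor genes (vertical axis) in each of the 9 libraries (horizontal axis), with color giving log2(count + 1) and the count printed in each cell. Calca has a count in every library, Npy in 7, Vip in 4, Tac1 and Gal in 1 each and Adcyap1 in none; the highest count is 47, for Npy in H2O2/saline 3.

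Levels per length of exon were compared between genes as CPM per kilobase. Over the 9 libraries Ramp1 had the highest mean, 2.92 CPM per kilobase (1.21 to 7.65). Tacr2 followed with 2.63 CPM per kilobase (0.866 to 4.23), and the ranges of Ramp1 and Tacr2 overlapped. Calcrl had 0.682 CPM per kilobase (0.344 to 1.19). Npy had 0.512 (0 to 2.06), Tacr1 0.284 (0.0846 to 0.528) and Calca 0.194 (0.0594 to 0.345) CPM per kilobase, with ranges that overlapped each other and that of Calcrl. Gal, Vip and Tac1 had means of 0.0282, 0.0128 and 0.00755 CPM per kilobase. In the control group the order was led by Tacr2 (2.99 ± 0.370 CPM per kilobase, SD, n = 3), followed by Ramp1 (1.60 ± 0.0844) and Calcrl (0.799 ± 0.401), and these 3 intervals did not meet.

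Of the 10 genes, 6 passed the filter on low counts and were tested among 19314 genes, namely Tacr1, Tacr2, Calca, Calcrl, Ramp1 and Npy. None of the 6 passed edgeR's quasi-likelihood test at a Benjamini-Hochberg adjusted p under 0.05 in H2O2/saline against control, where 0.0518% of all tested genes (10 genes) did. None passed in H2O2/SB431542 against H2O2/saline, where the background was 0%, or in H2O2/SB431542 against control, where it was 0.0155% (3 genes). At an unadjusted p under 0.05 the same test gave 2 of the 6 genes in the first comparison (Tacr1 and Ramp1), 1 in the second (Ramp1) and 1 in the third (Tacr1). Of all 19314 genes, 3449, 1705 and 1469 did so. The median log2 fold change of the 6 genes was 0.83 for H2O2/saline against control, beside -0.02 over all genes. It was -0.63 for H2O2/SB431542 against H2O2/saline, beside 0.02 over all genes. In these 2 comparisons 4 and 2 of the 6 genes had positive values, beside 48.6% and 51.6% of all genes. The first 2 comparisons share the H2O2/saline libraries.

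Tac1 encodes the precursor of substance P and neurokinin A. It had 8 counts in H2O2/saline 1, or 0.231 CPM (95% Clopper-Pearson interval 0.0998 to 0.455 CPM, counting error only), and 0 in the other 8 libraries. The library with these counts was the one that stood apart from its group, and a fold change against libraries at 0 is not given. Low whole counts were mostly even in these files (72.5% of those from 2 to 11), so 8 counts may stand for fewer molecules than the interval assumes.

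Tacr1 encodes the neurokinin receptor that binds substance P most strongly. Its level was 0.634, 0.766 and 0.773 CPM in the control libraries and 0.549, 3.36 and 3.17 CPM in the H2O2/saline libraries. In the H2O2/SB431542 libraries it was 0.603, 3.30 and 3.43 CPM. Replicates 2 and 3 of both H2O2-infused groups were thus all above the highest control, and replicate 1 of both was below the lowest control, so that the groups overlapped. The mean was 3.26-fold higher in H2O2/saline (2.36 ± 1.57 CPM, SD, n = 3) than in control (0.724 ± 0.0781 CPM), with a log2 fold change of 1.70 ± 0.73 (SE) and an edgeR adjusted p of 0.251. Between H2O2/SB431542 (2.44 ± 1.59 CPM) and H2O2/saline the log2 fold change was 0.05 ± 0.70 (edgeR adjusted p = 0.99). Against control it was 1.75 ± 0.73 in H2O2/SB431542 (edgeR adjusted p = 0.605).

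Without H2O2/saline 1 the log2 fold change of Tacr1 for H2O2/saline against control was 2.12 (edgeR adjusted p = 0.0509). With replicates 2 and 3 of every group only, it was 2.04 (edgeR adjusted p = 0.0207), in a fit that called 13.1% of all genes. Whether Tacr1 passed thus depended on which libraries entered the test, and it was not called with all 9.

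Tacr2 encodes the receptor preferred by neurokinin A, which is known for contracting bladder smooth muscle. Its level was 5.81, 7.08 and 7.40 CPM in control, 3.70, 5.35 and 7.92 CPM in H2O2/saline and 1.95, 4.75 and 9.55 CPM in H2O2/SB431542. The groups overlapped, and both the lowest and the highest library belonged to H2O2/SB431542. The log2 fold change was -0.26 ± 0.48 for H2O2/saline against control (edgeR adjusted p = 0.843) and -0.06 ± 0.48 for H2O2/SB431542 against H2O2/saline (edgeR adjusted p = 0.982). The 8 smooth muscle markers summed to 23110 to 51653 CPM in control, 25460 to 33607 CPM in H2O2/saline and 26033 to 27713 CPM in H2O2/SB431542. None of these 8 passed edgeR's test, and their part in the level of Tacr2 was not tested.

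Of the other tachykinin genes, Tacr3, the receptor of neurokinin B, had 0.628 ± 0.0966 CPM in control and 0.152 ± 0.118 CPM in H2O2/saline, with a log2 fold change of -2.03 (edgeR adjusted p = 0.398). The ligand genes Tac2 and Tac4 did not pass the filter.

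The CGRP receptor is built from 2 proteins. Calcrl is the G-protein-coupled receptor itself, and Ramp1 the accessory protein that brings it to the cell surface and makes it a CGRP receptor. Partnered with Ramp2 or Ramp3, the same Calcrl protein is a receptor for adrenomedullin. Calca encodes both calcitonin and alpha-CGRP by alternative splicing, which counts per gene cannot separate, and Calcb encodes beta-CGRP.

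The sequences of Calca and Calcb are shown where they are most alike, since reads there can belong to either gene. Their longest shared run in GENCODE M21 on GRCm38 has 61 bases, lies within the coding sequence of Calca-201 (chromosome 7, minus strand) and of Calcb-203 (chromosome 7, plus strand), and crosses an exon junction in both. In another transcript, Calca-203, the same run lies within 1 exon and holds 0 coding bases.
Calca and Calcb, shared run: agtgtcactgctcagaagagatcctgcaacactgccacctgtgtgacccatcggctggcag
Stretches of 31 bases found in both genes made up 1.97% of those of Calca and 2.62% of those of Calcb. How shared reads were counted is not stated in the sources used here.

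Calca had 0.423, 0.581 and 0.206 CPM in control and 0.404, 0.362 and 0.446 CPM in H2O2/saline. In H2O2/SB431542 it had 0.145, 0.10 and 0.274 CPM. The H2O2/saline libraries lay within the range of the controls, with a log2 fold change of 0.00 ± 0.84 (edgeR adjusted p = 0.999). Every H2O2/SB431542 library lay below every H2O2/saline library, with a log2 fold change of -1.21 ± 0.87 that did not pass (edgeR adjusted p = 0.715).

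Ramp1 was the gene of this group with the smallest adjusted p. Its level was 4.81, 4.59 and 5.10 CPM in control and 5.03, 23.1 and 17.5 CPM in H2O2/saline. In H2O2/SB431542 it was 3.67, 8.40 and 7.18 CPM. The controls lay close together, H2O2/saline 2 and 3 were above every other library, and H2O2/SB431542 2 and 3 lay between them and the controls. H2O2/saline 1 fell inside the range of the controls. The mean was 3.15-fold higher in H2O2/saline (15.2 ± 9.26 CPM, SD, n = 3) than in control (4.83 ± 0.255 CPM), and the log2 fold change of 1.65 ± 0.47 did not pass (edgeR adjusted p = 0.107). For H2O2/SB431542 (6.41 ± 2.46 CPM) against H2O2/saline it was -1.25 ± 0.47 (edgeR adjusted p = 0.529), and against control it was 0.41 ± 0.47 (edgeR adjusted p = 0.961).

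Without H2O2/saline 1, Ramp1 rose in H2O2/saline against control with a log2 fold change of 2.02 ± 0.33 (edgeR adjusted p = 0.00263), in a fit that called 9.43% of all genes. Without that library it fell in H2O2/SB431542 against H2O2/saline, with a log2 fold change of -1.62 ± 0.33 (edgeR adjusted p = 0.0379), where 1.02% of all genes were called. It was the only one of the 6 tested genes called in these 2 fits. With replicates 2 and 3 only, the log2 fold changes were 2.03 (edgeR adjusted p = 0.00114) and -1.36 (edgeR adjusted p = 0.0423, background 1.21%). With all 9 libraries Ramp1 was also called against control by DESeq2 (adjusted p = 0.00998, background 7.33%). With no filter on low counts, edgeR called it in both comparisons (adjusted p = 4.91e-05, background 4.72%, and adjusted p = 0.0223, background 0.82%). Ramp1 was not called in either comparison by limma-voom, with other scaling factors or with at least 10 counts in every library. It was also not called with only the 2 groups compared or with the deposited normalized values. With the replicate number as a block its adjusted p was 0.0532 against control, and none of the 6 genes passed in a fit that called 4.79% of all genes in the first comparison and 0% in the second. Among the single omissions only that of H2O2/saline 1 called Ramp1. With other libraries left out its edgeR adjusted p reached 0.376 in the first comparison and 0.968 in the second.

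The promoters of Ramp1 and Tacr1 are given because these were the 2 genes with an unadjusted p under 0.05 in H2O2/saline against control. The SMAD box CAGAC, a motif of the TGF-β pathway that reads GTCTG from the opposite strand, occurred in 42.2% of all promoters of this length and in 3 of the 4 receptor genes and 3 of the 6 peptide genes. The AP-1 motif TGANTCA occurred in 6.75% of all promoters and in none of the 10 genes. Capitals mark SMAD boxes and the half-site TGACG, and the first block of capitals in Tacr1 is a half-site that overlaps a SMAD box.
Ramp1, chr1:91179572-91179821 (+): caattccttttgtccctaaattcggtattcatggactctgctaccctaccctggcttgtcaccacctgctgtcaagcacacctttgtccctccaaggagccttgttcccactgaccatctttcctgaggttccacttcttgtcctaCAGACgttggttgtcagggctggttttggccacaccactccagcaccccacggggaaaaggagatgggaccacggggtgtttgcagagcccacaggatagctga
Tacr1, chr6:82402225-82402474 (+): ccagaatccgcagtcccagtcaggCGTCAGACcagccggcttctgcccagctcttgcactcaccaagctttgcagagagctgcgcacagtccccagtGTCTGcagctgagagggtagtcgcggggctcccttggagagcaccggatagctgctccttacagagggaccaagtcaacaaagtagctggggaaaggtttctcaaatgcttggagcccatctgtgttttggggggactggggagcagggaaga
Ramp1 held 1 SMAD box, 104 bases before its start, and Tacr1 held 2, at 223 and 153 bases before its start. With a motif present in so large a share of promoters, these matches set neither gene apart.

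Calcrl had 5.81, 1.90 and 3.99 CPM in control, 2.22, 1.68 and 3.34 CPM in H2O2/saline and 4.78, 3.37 and 2.86 CPM in H2O2/SB431542. The groups overlapped throughout, and the spread among controls was as wide as that between groups. Its log2 fold change was -0.69 ± 0.45 for H2O2/saline against control (edgeR adjusted p = 0.462) and 0.60 ± 0.45 for H2O2/SB431542 against H2O2/saline (edgeR adjusted p = 0.722). The receptor gene and its accessory gene therefore had values of opposite sign in both comparisons, a difference that was not itself tested.

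For Calcb and Ramp3, as for Ramp1, H2O2/saline 2 and 3 were the 2 highest libraries. Calcb had 0.0529, 0.422 and 0.283 CPM in control and 0, 5.25 and 6.49 CPM in H2O2/saline. In H2O2/SB431542 it had 0.0965, 1.0 and 0.663 CPM. H2O2/saline 1 was at 0, and the H2O2/SB431542 libraries were at most 1.0 CPM. Its log2 fold change was 3.94 ± 1.39 for H2O2/saline against control (edgeR adjusted p = 0.169) and -2.73 ± 1.30 for H2O2/SB431542 against H2O2/saline (edgeR adjusted p = 0.571). Without H2O2/saline 1 it rose against control by 4.47 on the log2 scale (edgeR adjusted p = 0.00663), and the second value was -3.28 (edgeR adjusted p = 0.0728).

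Ramp3 had 0.581, 0.739 and 0.155 CPM in control, 0.867, 7.37 and 6.34 CPM in H2O2/saline and 1.06, 4.20 and 3.66 CPM in H2O2/SB431542. All H2O2-infused libraries were above the highest control. Its log2 fold change of 3.30 ± 0.82 for H2O2/saline against control did not pass (edgeR adjusted p = 0.0795), and it passed with the replicate block (2.89, edgeR adjusted p = 0.0487) and without H2O2/saline 1 (3.74, edgeR adjusted p = 0.00378). Between H2O2/SB431542 and H2O2/saline the value was -0.71 (edgeR adjusted p = 0.821).

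Ramp2 was by far the most abundant of the accessory genes, at 186 ± 17.7 CPM in control, 247 ± 28.3 CPM in H2O2/saline and 195 ± 21.6 CPM in H2O2/SB431542 (SD, n = 3). Its log2 fold change against control was 0.41 (edgeR adjusted p = 0.245). Adm, which encodes adrenomedullin, had 3.57 ± 1.81 CPM in control and 7.64 ± 2.59 CPM in H2O2/saline, with a log2 fold change of 1.10 (edgeR adjusted p = 0.21). Adm2, which encodes a related peptide, had 0, 0.106 and 0 CPM in control, 0.0578, 2.17 and 0.594 CPM in H2O2/saline and 0.0965, 3.47 and 2.19 CPM in H2O2/SB431542. Replicates 2 and 3 of both H2O2-infused groups were above all other libraries for Adm2. It did not pass with all libraries (edgeR adjusted p = 0.162), and passed with the replicate block (edgeR adjusted p = 0.0261) and without H2O2/saline 1 (edgeR adjusted p = 0.0398).

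Some marker sums of other cells were highest in H2O2/saline 2 and 3, and others were not. The 8 endothelial markers, whose cells are known to carry Calcrl with its partners, summed to 129 to 184 CPM in control and to 183, 316 and 265 CPM in H2O2/saline 1, 2 and 3. In H2O2/SB431542 1, 2 and 3 they summed to 226, 183 and 206 CPM. The 9 leukocyte markers summed to 69.9 to 86.6 CPM in control, to 112, 216 and 200 CPM in H2O2/saline 1, 2 and 3, and to 101 to 154 CPM in H2O2/SB431542. A positive log2 fold change for H2O2/saline against control was found in 5 of the 8 endothelial and 9 of the 9 leukocyte markers. Of all tested genes, 48.6% had one. The fibroblast and interstitial markers summed to 4389, 3637 and 3477 CPM in H2O2/saline 1, 2 and 3. The urothelial markers summed to 19322, 11200 and 10899 CPM there, and were lowest in H2O2/saline 2 and 3. None of these markers was called in any comparison and none was at 0 in all libraries. Their part in the levels of Ramp1, Tacr1, Calcb and Ramp3 was not tested.

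**Figure D2:**
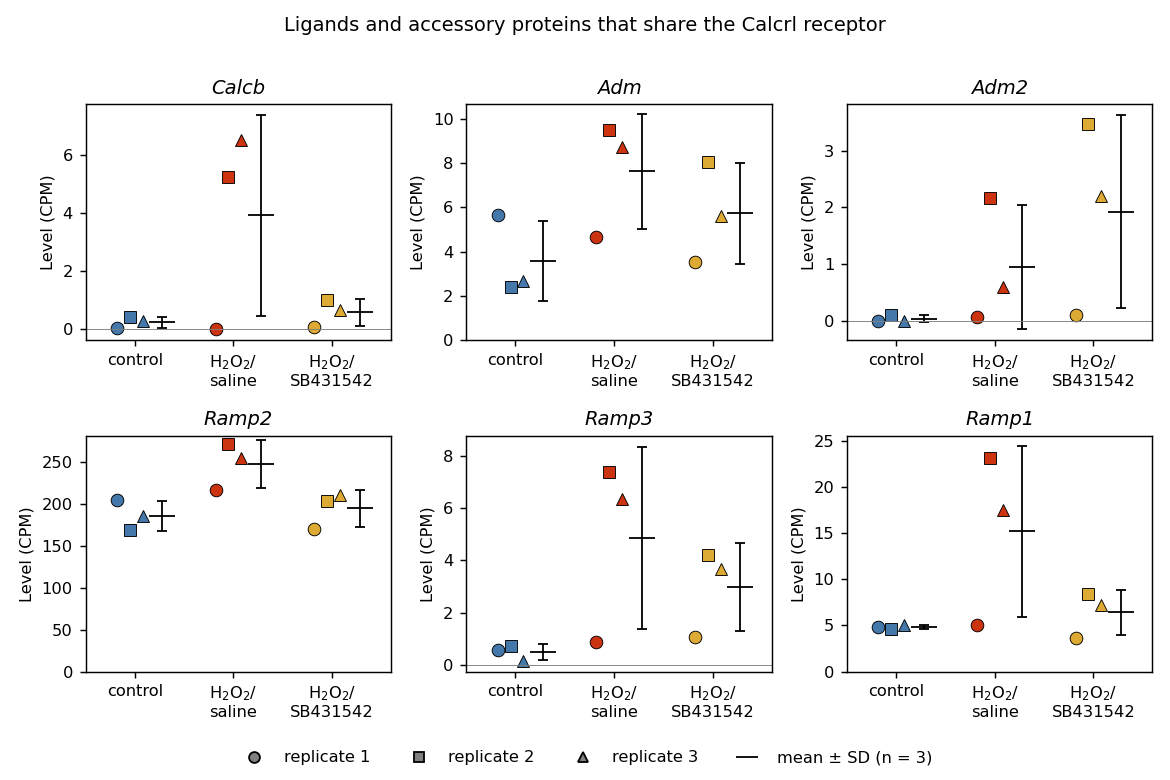
Level in CPM (vertical axis, linear, a scale for each gene) of the ligand genes Calcb, Adm and Adm2 and the accessory genes Ramp2, Ramp3 and Ramp1 in the 3 groups (horizontal axis); symbols mark the replicate number, and black bars the mean ± SD of 3 libraries. H2O2/saline 2 and 3 are the 2 highest libraries for Calcb (5.25 and 6.49 CPM), Ramp3 (7.37 and 6.34 CPM) and Ramp1 (23.1 and 17.5 CPM), while H2O2/saline 1 has 0 CPM of Calcb.

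Npy encodes neuropeptide Y, a peptide of sympathetic fibers. It had 0.423, 0.106 and 0 CPM in control and 0.462, 0.207 and 1.16 CPM in H2O2/saline. In H2O2/SB431542 it had 0.0965, 0.150 and 0 CPM. The highest value, in H2O2/saline 3, rested on 47 counts, and control and H2O2/saline overlapped (log2 fold change 1.78 ± 1.38, edgeR adjusted p = 0.559). Every H2O2/SB431542 library lay below every H2O2/saline library, with a log2 fold change of -2.86 ± 1.46 that did not pass (edgeR adjusted p = 0.594).

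Calca and Npy were thus the 2 of 6 tested genes whose H2O2/SB431542 and H2O2/saline libraries did not overlap, beside 15.8% of all tested genes. In the other comparisons none of the 6 genes had groups that did not overlap, beside 18.7% of all genes for H2O2/saline against control and 14.5% for H2O2/SB431542 against control.

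Th and Dbh, enzymes of noradrenaline synthesis that mark sympathetic fibers, did not follow Npy. Th had 0 counts in all 3 H2O2/saline libraries, but a count in only 4 of the 9 libraries. Its level was 0.207 ± 0.272 CPM in control and 0.137 ± 0.127 CPM in H2O2/SB431542 (SD, n = 3). Dbh had 3, 0 and 0 counts there and 6, 33 and 8 counts in control. Both were too low to be tested. The 19 neuron and axon markers summed to 1072 to 1875 CPM in control, 178 to 1084 CPM in H2O2/saline and 385 to 786 CPM in H2O2/SB431542. Most of this sum was Uchl1, which had 1386 ± 419 CPM in control and 476 ± 510 CPM in H2O2/saline. Over all libraries Uchl1 had a mean of 798 CPM, and Stmn2, the next most abundant marker, 7.55 CPM. The sum thus mainly describes Uchl1 and is not read as an amount of neurons. Of the 9 tested markers, 5 had a positive log2 fold change for H2O2/saline against control, beside 48.6% of all tested genes. Of the defining markers, Chat and Scn10a were at 0 in control and H2O2/saline. None of the 9 tested markers was called, and their part in the peptide levels was not tested.

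Among the receptors of neuropeptide Y, Npy1r, which constricts vessels when activated, had 4.28, 4.73 and 6.60 CPM in control, 4.13, 1.53 and 1.88 CPM in H2O2/saline and 3.16, 4.92 and 3.61 CPM in H2O2/SB431542. H2O2/saline 2 and 3 were the 2 lowest libraries. The log2 fold change was -1.05 (edgeR adjusted p = 0.209), and Npy1r fell without H2O2/saline 1, to a value of -1.66 (edgeR adjusted p = 0.0194). Npy4r was the most abundant of these receptors, at 18.1 ± 4.60 CPM in control and 15.7 ± 3.53 CPM in H2O2/saline. Npy6r had 8.96 ± 7.90 CPM in control and 1.74 ± 0.351 CPM in H2O2/saline, with a log2 fold change of -2.36 (edgeR adjusted p = 0.0904). Npy2r did not pass the filter, and Npy5r was at 0 in all libraries.

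Vip encodes VIP, a relaxant peptide of parasympathetic fibers. It had 5.5, 0 and 5 counts in control, 2, 0 and 0 counts in H2O2/saline and 2, 0 and 0 counts in H2O2/SB431542. The highest level, 0.159 CPM in control 1, had a 95% Clopper-Pearson interval of 0.0582 to 0.345 CPM. A difference between groups was not detectable at these counts. Adcyap1, which encodes the related peptide PACAP, had 0 counts in all 9 libraries.

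The receptors of VIP and PACAP were present at higher levels than the peptides. Vipr1, a receptor for both peptides, had 23.9, 17.3 and 19.9 CPM in control, 18.9, 7.03 and 5.45 CPM in H2O2/saline and 17.0, 12.8 and 15.6 CPM in H2O2/SB431542. H2O2/saline 2 and 3 were again the 2 libraries that differed, here as the lowest. The log2 fold change against control was -0.96 (edgeR adjusted p = 0.222). Without H2O2/saline 1, Vipr1 fell in H2O2/saline with a value of -1.76 (edgeR adjusted p = 0.00178) and was higher in H2O2/SB431542 than in H2O2/saline by 1.32 on the log2 scale (edgeR adjusted p = 0.0345). Adcyap1r1, the receptor specific to PACAP, had 5.88 ± 0.475 CPM in control and 9.63 ± 2.27 CPM in H2O2/saline, with a log2 fold change of 0.71 (edgeR adjusted p = 0.204). Vipr2 had 0.106 ± 0.161 CPM in control and 0.357 ± 0.123 CPM in H2O2/saline (edgeR adjusted p = 0.534).

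Gal encodes galanin. It had 8 counts in H2O2/SB431542 2, or 0.200 CPM (95% Clopper-Pearson interval 0.0863 to 0.394 CPM), and 0 in the other 8 libraries. Of its receptors, Galr2 had 10.6 ± 5.98 CPM in control and 7.93 ± 2.32 CPM in H2O2/saline, with a log2 fold change of -0.42 (edgeR adjusted p = 0.713). Galr1 did not pass the filter.

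Among the 24 other peptide ligand genes, 6 were at 0 in all libraries and 8 were tested. None of the 8 was called in any comparison. For H2O2/saline against control, 6 had a positive log2 fold change, beside 48.6% of all tested genes, and the median was 1.13. Penk, the precursor of enkephalins, had 3.38 ± 2.59 CPM in control, 7.59 ± 1.87 CPM in H2O2/saline and 2.93 ± 1.5 CPM in H2O2/SB431542. Its log2 fold changes were 1.17 (edgeR adjusted p = 0.269) and, for H2O2/SB431542 against H2O2/saline, -1.37 (edgeR adjusted p = 0.529). Cck, the precursor of cholecystokinin, had 5.10 ± 2.48 CPM in control and 1.43 ± 1.69 CPM in H2O2/saline (edgeR adjusted p = 0.402).

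Of the 36 other receptor genes 15 were tested and none was called. For H2O2/saline against control, 5 had a positive log2 fold change, beside 48.6% of all tested genes, and the median was -0.42. Oprk1, the kappa opioid receptor, had 27.1, 25 and 26.1 counts in control, 1 count in each H2O2/saline library and 7.71, 1.67 and 1.5 counts in H2O2/SB431542. Its groups did not overlap, H2O2/saline 1 was as low as the other 2 libraries of its group, and it did not pass (edgeR adjusted p = 0.0741).

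Peptides are cut by the convertases, trimmed by Cpe and amidated by Pam. Of 11 genes for processing and storage, 7 were tested and none was called, with a median log2 fold change of 0.40 for H2O2/saline against control. Cpe had 86.9 ± 4.32 CPM in control and 115 ± 23.6 CPM in H2O2/saline (edgeR adjusted p = 0.307). Pam had 79.1 ± 23.6 CPM in control and 64.8 ± 14.3 CPM in H2O2/saline (edgeR adjusted p = 0.6). Chga, a granule protein of neuroendocrine cells, had 0.132, 0 and 0.206 CPM in control and 0.289, 2.77 and 1.81 CPM in H2O2/saline. It had a log2 fold change of 3.81 (edgeR adjusted p = 0.11) and rose without H2O2/saline 1 by 4.25 (edgeR adjusted p = 0.0206).

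All 6 genes for peptide breakdown were tested and none was called, with a median log2 fold change of 0.59 for H2O2/saline against control. Ece1, an endothelin-converting enzyme that also cleaves substance P, had 95.7 ± 14.3 CPM in control and 139 ± 34.5 CPM in H2O2/saline (edgeR adjusted p = 0.216), and it rose without H2O2/saline 1 by 0.68 on the log2 scale (edgeR adjusted p = 0.0485). Ace, the angiotensin-converting enzyme, had 14.9 ± 4.14 CPM in control and 32.1 ± 14.95 CPM in H2O2/saline (edgeR adjusted p = 0.131). Ace rose without H2O2/saline 1 by 1.40 on the log2 scale (edgeR adjusted p = 0.00446), and was also called by DESeq2 (adjusted p = 0.0325), by edgeR with no filter (adjusted p = 0.000831) and by edgeR with replicates 2 and 3 only (adjusted p = 0.0032). Mme, or neprilysin, which also degrades tachykinins, had 0.608 ± 0.701 CPM in control and 0.251 ± 0.181 CPM in H2O2/saline (edgeR adjusted p = 0.662). Of the other tested genes of these lists, Nts (1.30), Pcsk2 (1.05), Scg5 (1.10) and Cma1 (1.39) had log2 fold changes above 1 in H2O2/saline against control, and Ntsr1 (-1.90) and Pcsk1n (-2.88) had values below -1, none of which passed with all 9 libraries. Cma1, a mast cell chymase, rose without H2O2/saline 1 by 1.78 on the log2 scale (edgeR adjusted p = 0.0492).

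**Figure D3:**
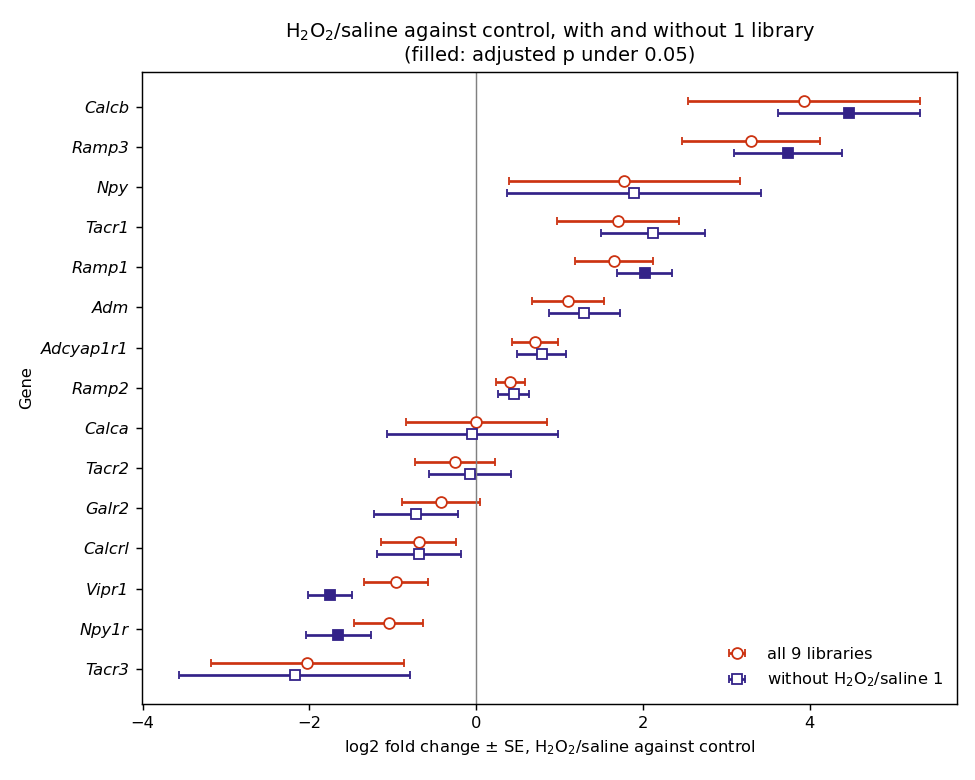
Log2 fold change ± SE of H2O2/saline against control (horizontal axis) for 15 genes of the peptide systems (vertical axis), with all 9 libraries (red circles) and without H2O2/saline 1 (blue squares); filled symbols have an edgeR adjusted p under 0.05. No circle is filled, and the filled squares are Calcb (4.47), Ramp3 (3.74), Ramp1 (2.02), Vipr1 (-1.76) and Npy1r (-1.66).

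The genes most like each tested gene were sought by Pearson's r of log2 CPM over the 9 libraries, which share group and replicate number, so that r is a description. Tacr1 was most like Mmp7 (r = 0.988) and Samd5 (r = 0.981). Ramp1 was most like Fdx1 (r = 0.987) and Hs3st1 (r = 0.984). For Tacr2 they were Fam13c (r = 0.955) and Gm1673 (r = 0.939), and for Calcrl Mansc1 (r = 0.939) and Gm2011 (r = 0.912). Calca was most like Hottip and Rab36 (r = 0.909 for both), and Npy was most like 1110038F14Rik and Fam173b (r = 0.951 for both). Among the 6 tested genes themselves, Tacr1 and Ramp1 were the pair most alike (r = 0.818), and Ramp1 and Calcrl had an r of -0.437.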

How the data were processed

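RNA of 9 mouse bladder samples was analysed, 3 in each group. The authors purified poly-A RNA from 1 hemisphere per bladder (total bladder in the labels), sequenced paired ends on an Illumina Novaseq and used strand NGS. The sources used here give no aligner, annotation or counting rule. The submitters' processing notes name GRCm39. The deposited raw columns hold expected counts per gene, of which 32.0% of nonzero values were whole. The deposited normalized columns hold log2 values that the authors centred per gene, used here as an alternative only. Of 53342 genes, 19393 had no count.

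Expected counts were rounded, scaled by TMM factors (0.910 to 1.07) and filtered with filterByExpr, which left 19314 genes. All 9 libraries entered 1 edgeR 4.0.16 quasi-likelihood fit (R 4.3.3) with a mean per group, and p-values were adjusted by Benjamini-Hochberg over all genes tested, with a threshold of 0.05. CPM values use the TMM factors. CPM per kilobase uses the exon length of GENCODE M21, whose build, GRCm38, differs from that of the files, and no coordinate of the files was converted. Promoters came from RefSeq, and all 10 genes matched. No member shares exon bases with another gene of GENCODE M21. Likeness used log2 CPM with a prior count of 2. The fit was tested on simulated data. The kit is not described as marking strand. No exact test was made on single genes, since 3 libraries a group cannot reach the threshold.

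The members and the 12 gene lists (143 entries) were chosen with earlier results of these data known. The text names the 10 members and, of each list other than the cell markers, genes called, the 2 most abundant, the direct partners of the members and tested genes with an absolute log2 fold change above 1 in H2O2/saline against control, the main ones with values. Tac2, Tac4, Npy5r, Th, Dbh, Uchl1, Chat and Scn10a were named after their values were seen.

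Neither labels nor paper say that equal replicate numbers belong together. Deviations from the group means correlated between same-numbered libraries of control and H2O2/saline at 0.312, 0.119 and 0.112, and between those of H2O2/saline and H2O2/SB431542 at 0.514, 0.201 and 0.129, so that the numbers were treated as pairs in the alternative fit with a replicate block. Control and H2O2/SB431542 gave 0.321, 0.0399 and 0.0770, lower for replicates 2 and 3 than in the other comparisons. The block values of that comparison stand only among the alternatives. In each comparison the highest correlation was that of replicate 1, so these values do not settle whether replicates 2 and 3 are pairs. Alternatives were DESeq2 1.42.0, limma-voom and limma 3.58.1 on the deposited log2 values, other scaling factors and filters, only the 2 groups compared, the replicate block, replicates 2 and 3 only, and each library left out in turn.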

Additional observations from a re-analysis of the deposited data

How the results depend on the processing

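Counts of called genes depended strongly on the setting. For H2O2/saline against control, 10 genes were called with all libraries, 1415 by DESeq2, 1579 with no filter, 323 with at least 10 counts in every library, 4 with only the 2 groups, 925 with the replicate block and 2521 with replicates 2 and 3 only. For H2O2/SB431542 against H2O2/saline, 0 genes became 27 by DESeq2, 274 with no filter, 1 with only the 2 groups, 234 with replicates 2 and 3 only and 2 with the deposited normalized values. For H2O2/SB431542 against control, 3 genes became 183 by DESeq2, 5 with upper-quartile factors, 439 with no filter, 6 with at least 10 counts in every library, 23 with only the 2 groups, 35 with the replicate block and 449 with replicates 2 and 3 only. Leaving out each library in turn gave 0 to 1822 genes, 0 to 197 and 0 to 83 in the 3 comparisons, with the highest value each time without H2O2/saline 1. The cause was not tested.

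Among the members, 1 was called in H2O2/saline against control by DESeq2 and with no filter, and 2 with replicates 2 and 3 only. In H2O2/SB431542 against H2O2/saline 1 was called with no filter and with replicates 2 and 3 only. Leaving out each library gave 0 to 1 members in the first comparison, 0 to 1 in the second and 0 to 0 in the third. The replicate block called none and changed no call of a member (Ramp1 1.40, edgeR adjusted p = 0.0532, and Tacr1 1.29, edgeR adjusted p = 0.2). Of 336 log2 fold changes of members under alternatives, 307 kept direction and call, 8 became called and 21 changed sign, all in values that were not called.

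The sign changes were these. Calca for H2O2/saline against control gave -0.034 with upper-quartile factors, -0.0143 with the replicate block and -0.29 to 0.36 when each library was left out. For H2O2/SB431542 against H2O2/saline, Tacr2 gave 0.13 with replicates 2 and 3 only and -0.75 to 0.33 when each library was left out, and Tacr1 -0.38 to 0.51. For H2O2/SB431542 against control, Calcrl gave 0.0150 with limma-voom, 0.0191 with the replicate block, 0.0612 with replicates 2 and 3 only, 0.00889 with the deposited normalized values and -0.43 to 0.31 when each library was left out. In that comparison Npy gave 0.48 with replicates 2 and 3 only and -1.82 to 0.60 when each library was left out, and Tacr2 -1.002 to 0.0786. Outside the members, Mme for H2O2/saline against control gave 0.0108 with limma-voom and -1.83 to 0.18 when each library was left out, and Galr2 -0.72 to 0.17. No scaling moved the median of all genes by over 0.1 on the log2 scale.

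Low counts limit what can be said of the peptide genes, 4 of which did not pass the filter. Whether depth or a lack of transcript lies behind the low counts was not tested. The 3 libraries of a group limit every comparison, and the one that stood apart is a sizeable part of its group. Named genes called without H2O2/saline 1 in H2O2/saline against control were not called under every single omission. Their highest edgeR adjusted p lay between 0.277 (Ramp3) and 0.642 (Cma1).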
